A study of Mus musculus with 2 samples.

Results

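The genes described here encode the enzymes that build mucin-type O-glycans, together with the fucosyl- and sialyltransferases that cap them. They were taken by array gene name, as every non-control probe named Galnt, B3gnt, B3galt, B4galt, Gcnt, Fut, St3gal, St6gal, St6galnac or St8sia followed by a number, plus C1galt1 and C1galt1c1. The names found were 72 of 34648 on the array, read by 102 probes in 11 families. The name rule uses no measured value, but the members were chosen with earlier results of these data known. Each gene took its brightest probe, which is picked by intensity. The names also take in enzymes of other glycans. Fut8, B3galt6 and B4galt7, for example, act on N-glycans or on the linker of proteoglycans.

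The cells were CMT93, a mouse rectal carcinoma line of the C57BL/ICRF strain (labelled age 19 months), whose RNA was read on 2 one-colour Agilent arrays. Control RNA was on 1 array. The other held RNA of cells exposed to lipopolysaccharide (LPS), the glycolipid of the Gram-negative outer membrane. The labelled exposure was 3 µg/mL for 24 h. Each group was 1 array of 1 cell line, so the difference between the groups has no replicate check and no test was possible. All 12 epithelial markers but Cdx2 were well above background on both arrays. Of 8 goblet cell markers, Spdef and Clca3 passed on both arrays, Agr2 passed in control cells only, and Muc2, Tff3, Fcgbp, Zg16 and Atoh1 passed on neither. As a model of colonic epithelium the cells thus had no Muc2 signal well above background.

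Mucin-type O-glycosylation begins in the Golgi, where polypeptide GalNAc-transferases (the Galnt genes) put N-acetylgalactosamine on serine or threonine. The T synthase C1galt1, which needs its chaperone C1galt1c1 (Cosmc), adds galactose to give core 1, while B3gnt6 makes core 3, and Gcnt enzymes branch these cores into core 2 and core 4. B3gnt, B3galt and B4galt enzymes lengthen the chains. Fucosyltransferases and sialyltransferases then finish them, making blood-group, Lewis and sialyl structures that gut bacteria and lectins bind. In the colon these glycans make up most of the mass of the mucins.

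Of the 72 genes, 44 (61.1%) were well above background on both arrays, which will be called measured. Another 2 passed after LPS only, 1 passed in control cells only, and 25 passed on neither array. Over all 34648 names, 58.7% were measured, 1.93% passed after LPS only, 2.73% in control cells only and 36.7% on neither array. The list was thus detected about as often as genes at large.

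**Figure D1:**
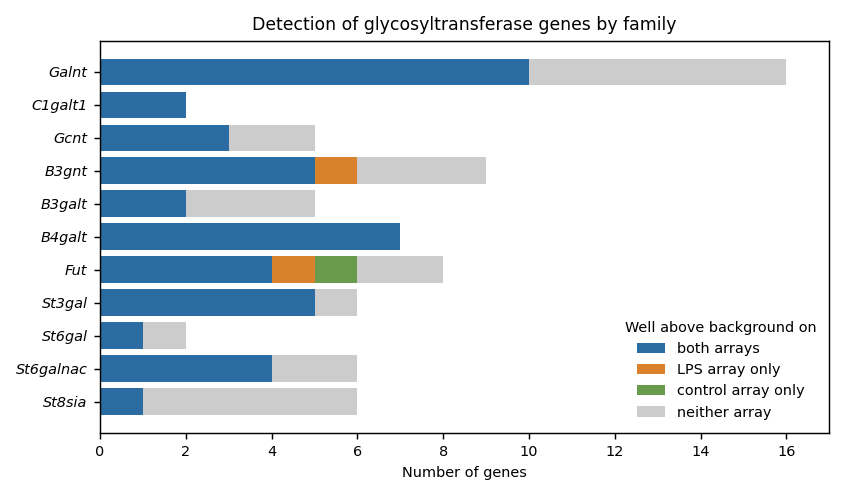
Number of genes (x axis) in each glycosyltransferase family (y axis) by whether the brightest probe passed the background flag on both arrays, after LPS only, in control cells only or on neither array. All 7 B4galt genes and both C1galt1 genes were measured, while 5 of 6 St8sia genes were above background on neither array.

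No measured glycosyltransferase gene differed 2-fold between the arrays. At this threshold 0 of 44 were higher and 0 were lower on the LPS array, where 1.46% of all 20328 measured genes were higher and 0.571% were lower. At 1.5-fold 1 gene, Galnt18, was higher, and none was lower, against 3.59% and 2.68% of all measured genes. The median log2 difference (LPS minus control) was -0.040, and over all measured genes it was -0.022. In the list 20 genes (45.5%) were above 0 and 24 below, where 44.5% of all measured genes were above 0. Later counts by sign are to be read beside this share. The middle of the list ran from -0.18 to 0.16 between its quartiles, and that of all genes from -0.14 to 0.097. In all, 40 members (90.9%) lay within 0.5 of 0 on the log2 scale, as did 91.5% of all measured genes. The shares within 0.5 of 0 are close, but the quartiles of the list lay further apart than those of all genes. At or above the median brightness of measured genes, they were -0.16 and 0.16 for members, against -0.092 and 0.080 for all genes. Why the middle of the list is wider was not tested.

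The error at hand comes from probes printed several times on the slide. Sorted by brightness into 4 classes, the SD of their log2 difference had a median of 0.13 in the dimmest class, then 0.055, 0.041 and 0.028. The median of a gene's brightness class follows each ± below (SD between spots, 1 array per group). Single probes can vary more, with an SD of up to 0.50 in the dimmest class. The ± leaves out the spread between cultures. By the class median, 26 of the 44 differences were larger than 3 times the slide SD. This is a larger share than that over all 20328 measured genes, which was 32.5%. The slide SD is smaller for bright probes, and 32 of the 44 members lay at or above the median brightness of all measured genes. The part of brightness in this count was not tested. Intensities are in arbitrary units and each probe has its own scale, so they are compared between arrays and never between genes. The 75th percentile of the LPS array was lower by 0.045 on the log2 scale, and this was removed from every difference.

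**Figure D2:**
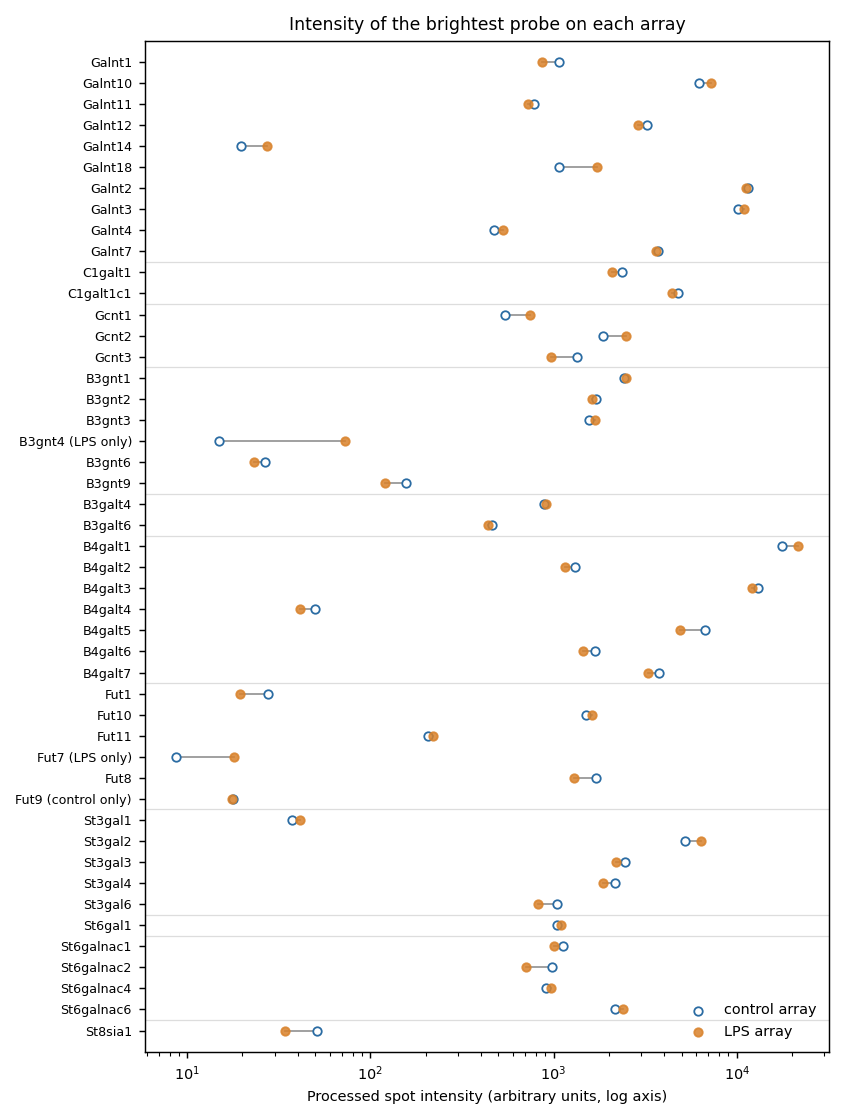
Processed intensity (x axis, arbitrary units, log axis) of the brightest probe on the control array (open circles) and the LPS array (filled circles), for the 47 genes well above background on at least 1 array, grouped by family with thin lines between families. The widest gap is that of B3gnt4, at 14.8 in control cells and 72.5 after LPS.

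The GalNAc-transferases that start the chain spanned the widest range of any family here, from -0.26 to 0.74. Of 16 Galnt genes, 10 were measured, with 7 above 0, 3 below and a median of 0.094. Galnt18, an atypical member of the family, had an intensity of 1064 in control cells and 1718 after LPS. It was 1.67-fold higher with LPS, a log2 difference of 0.74 ± 0.055, the largest of the measured list. Under 10 other ways of processing the arrays it lay between 0.70 and 0.77. Of these, the changes of filter and the median level over measured probes leave the value of Galnt18 as it is. Its probe lies on chromosome 7 at 118615450 to 118615509 (mm9, minus strand). The probe's first 30 of 60 bases, shown because this 1 probe carries the value, are given here, beside those of a further Galnt18 probe at 118692146 to 118692205. That further probe was above background on neither array, at 7.10 and 3.48.
Galnt18 measured probe: agaagtgctcgggacaacactggactatca
Galnt18 probe at background: ggagcttgggatcagggtgagtgagatttc

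Galnt14 was dim on its brightest probe, at 19.6 in control cells and 27.4 after LPS, a log2 difference of 0.52 ± 0.13. With normexp background correction the difference was 0.10. A further Galnt14 probe, at 5.30 and 21.2, passed the background flag after LPS only. Both probes were thus brighter with LPS, though each was near the floor of detection. The 2 probes lie on chromosome 17, at 73884611 to 73884670 and 73843114 to 73843173 (mm9, minus strand), and begin as follows.
Galnt14 brightest probe: acattgcccaaggcaccactctgaccttcc
Galnt14 further probe: cttgtcactgtgccaggacgacatggagag

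Galnt2 and Galnt1 are the GalNAc-transferases known for broad expression. Galnt2 was at 11467 and 11313 on the control and LPS arrays, a log2 difference of 0.025 ± 0.028. Galnt1 was lowest in the family, at 1074 and 869, with a difference of -0.26 ± 0.055. Galnt3, an enzyme of epithelia that also glycosylates the phosphate hormone FGF23, was at 10135 and 10992, or 0.16 ± 0.028. Galnt10 and Galnt7, which prefer peptides already carrying GalNAc, differed by 0.27 ± 0.028 and 0.0085 ± 0.041. Galnt4, which shares that preference, stood at 0.22 ± 0.055. Galnt12, a family member expressed in colon, was at 3254 and 2873, or -0.13 ± 0.041, but a further measured probe gave 0.077. Galnt11 was at -0.054 ± 0.055. Galnt5, Galnt6, Galnt9, Galnt13, Galnt15 and Galnt16 were above background on neither array.

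Both genes for core 1 were measured and both were slightly lower with LPS. C1galt1, the T synthase, was at 2361 in control cells and 2092 after LPS, a log2 difference of -0.13 ± 0.041. Its probe lies on chromosome 6 at 7821076 to 7821135 (mm9). C1galt1c1, the chaperone without which the T synthase misfolds, was at 4759 and 4417, or -0.063 ± 0.028, with its probe on chromosome X at 35984333 to 35984392 (mm9). Over the alternatives the first lay between -0.16 and -0.11 and the second between -0.081 and -0.047. B3gnt6, the core 3 synthase of the colon, was measured but dim, at 26.5 and 23.0, a difference of -0.16 ± 0.13 that was -0.013 with normexp. For core 3 the arrays thus differed by little more than repeated spots do.

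The branching enzymes went in opposite directions on these arrays. Gcnt1, the core 2 enzyme of the leukocyte type, was at 544 in control cells and 747 after LPS, a log2 difference of 0.50 ± 0.055. Gcnt3, the mucus-type enzyme that makes core 2 and core 4 in gut and airway, was at 1337 and 965, or -0.43 ± 0.055. Gcnt2, which branches poly-N-acetyllactosamine into the I blood group antigen, was at 1867 and 2474, or 0.45 ± 0.041. No one of the 3 reached 1.5-fold, and with 1 array per group the contrast between Gcnt1 and Gcnt3 was not tested. All 3 Gcnt1 probes were brighter with LPS, at 0.50, 0.50 and 0.19, and taking the median level over probes on each array, instead of the brightest probe, gave 0.19. For Gcnt2 a further probe gave 0.20. Gcnt3 has 1 probe, which lay between -0.44 and -0.39 over the alternatives. Gcnt4 and Gcnt7 were above background on neither array.

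Of the probes behind these opposite signs, 2 of Gcnt1 and that of Gcnt3 are shown. The Gcnt1 probes lie on chromosome 19 at 17400787 to 17400846 and 17403599 to 17403658, and the Gcnt3 probe on chromosome 9 at 69879436 to 69879495 (mm9). These are the first 30 bases of each.
Gcnt1 brightest probe: taaacatgtgtttgtgtcacgtatcgagta
Gcnt1 further probe: tttgccaataagtttgacatggatgtcgac
Gcnt3 probe: tgaagaggtcagatacactgtttaaaaatg

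**Figure D3:**
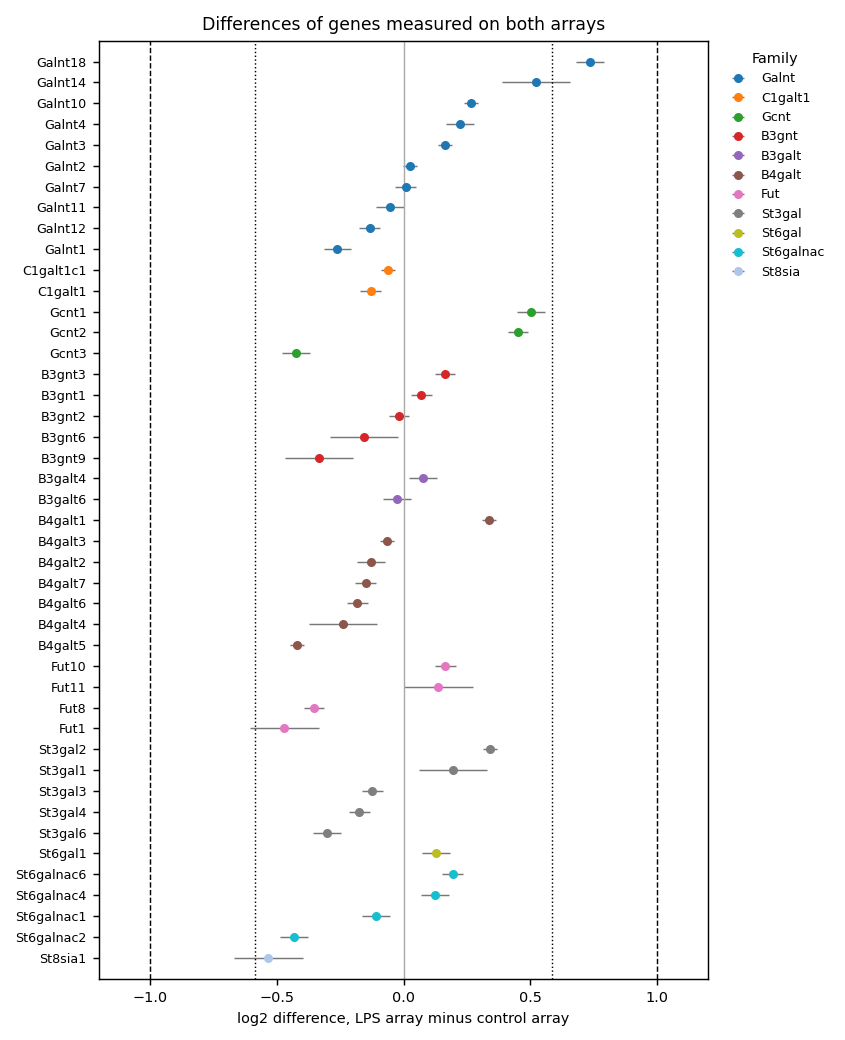
The log2 difference (LPS array minus control array, x axis) of each of the 44 measured genes (y axis), coloured by family. Points are the brightest probe, bars are 1 SD between repeated spots of similar brightness, dotted lines mark 1.5-fold and dashed lines 2-fold. Galnt18 at 0.74 is the only point past a dotted line, and St8sia1 at -0.53 is the lowest.

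Among the chain-lengthening B3gnt genes, 5 of 9 were measured, with 2 above 0, 3 below and a median of -0.018. B3gnt4, which extends poly-N-acetyllactosamine, was the exception to the small differences. Its probe read 14.8 in control cells, not well above background, and 72.5 after LPS, well above it. Set against the lowest intensity well above background on the control array, B3gnt4 was at least 4.69-fold higher with LPS, a log2 bound of 2.23. The bound depended on background correction, being 0.82 on the log2 scale with normexp and 2.11 to 2.26 with the other scalings. Among all genes that passed after LPS only, 45.0% of 669 had a bound of at least 2-fold. Bounds of 2-fold are thus common among genes that passed after LPS only. How many of them reached 4.69-fold was not counted. One probe reads B3gnt4, on chromosome 5 at 123961746 to 123961805 (mm9, plus strand), and no further probe was there to compare.
B3gnt4 probe, first 30 bases: tatgctaacaaccttatttaattaaaagtg

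B3gnt3, which lengthens core 1 and is known in epithelia and high endothelial cells, was highest of the measured B3gnt genes, at 1556 and 1689, or 0.16 ± 0.041. B3gnt9 was lowest, at 157 and 121, or -0.33 ± 0.13, and -0.21 with normexp. B3gnt2, the main poly-N-acetyllactosamine enzyme, was at 1698 and 1625, or -0.018 ± 0.041. The array name B3gnt1 now stands for B4gat1, by its accession in RefSeq (GRCm38.p6). Its product acts on the glycan of dystroglycan and not on mucins, and it was at 2433 and 2476, or 0.070 ± 0.041. B3gnt5, which starts the lacto-series glycolipids, and B3gnt7 and B3gnt8 were above background on neither array.

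RefSeq's promoter table (GRCm38.p6) held 71 start sites for 51 of the 72 genes, each with 250 bases before and 50 after the start. A match to the kappaB consensus, the element that NF-kB proteins bind, was found on either strand in 5 of the 71 (7.04%), and in 8.46% of all 32851 promoters of that table. The 5 were those of B3gnt4, B3gnt8, B4galt7, Galnt7 and St3gal6. TGANTCA, the AP-1 element, was in 4 (5.63%) against 7.81% of all promoters, TATAAA was in 1 (1.41%) against 13.6%, and GGGCGG, the GC box, in 40 (56.3%) against 35.7%. Of the 5 genes with a kappaB match, B3gnt4 is the one above background with LPS only, B3gnt8 was above background on neither array, and the others were measured at -0.15 (B4galt7), 0.0085 (Galnt7) and -0.30 (St3gal6). A match describes letters and not a binding site. The B3gnt4 promoter is shown because it belongs to the member with the widest gap between arrays. It is the plus strand of chr5:123508232-123508531 (GRCm38.p6), with the kappaB match, which begins 35 bases before the start, in capitals.
B3gnt4 promoter: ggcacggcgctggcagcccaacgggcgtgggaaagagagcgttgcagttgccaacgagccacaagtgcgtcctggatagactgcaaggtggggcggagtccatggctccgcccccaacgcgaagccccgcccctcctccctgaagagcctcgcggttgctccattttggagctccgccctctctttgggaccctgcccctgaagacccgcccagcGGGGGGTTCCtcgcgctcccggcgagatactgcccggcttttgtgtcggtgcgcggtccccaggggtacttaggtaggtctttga

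Of the galactosyltransferases, 2 of 5 B3galt genes and all 7 B4galt genes were measured. B3galt4, which makes the gangliosides GM1 and GD1b, was at 888 and 909, or 0.078 ± 0.055. B3galt6, of the proteoglycan linker, was at 464 and 441, or -0.027 ± 0.055, a sign that was not kept under every alternative. B3galt5, which makes type 1 chains in the gut, was above background on neither array, nor were B3galt1 and B3galt2.

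In the B4galt family 1 gene was above 0 and 6 were below, with a median of -0.15. B4galt1, the main N-acetyllactosamine synthase, was at 17726 in control cells and 21691 after LPS, or 0.34 ± 0.028, and its further probe gave 0.42. B4galt5, which makes lactosylceramide and also extends O-glycans, was lowest at 6727 and 4875, or -0.42 ± 0.028. A further B4galt5 probe went the other way, at 38.8 and 50.3, or 0.42, so the median level over its probes gave a difference of -0.0005. That probe is far dimmer, and its stretch on chromosome 2 (167126904 to 167126963) lies beside that of the brightest (167124056 to 167124115, mm9). The direction for B4galt5 therefore rests on which probe is read. The first 30 bases of both are shown for this reason.
B4galt5 brightest probe: gttttaaaaggtgccaggggtacatttttg
B4galt5 further probe: caaaggagcggcaaggactggatggcctca

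The other B4galt genes were closer to 0. B4galt6, a lactosylceramide synthase like B4galt5, was at 1687 and 1441, or -0.18 ± 0.041, and its further probe gave -0.19. B4galt7, of the proteoglycan linker, was at -0.15 ± 0.041. B4galt2, B4galt3 and B4galt4, further N-acetyllactosamine synthases, differed by -0.13 ± 0.055, -0.067 ± 0.028 and -0.24 ± 0.13, and the last was -0.044 with normexp.

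**Figure D4:**
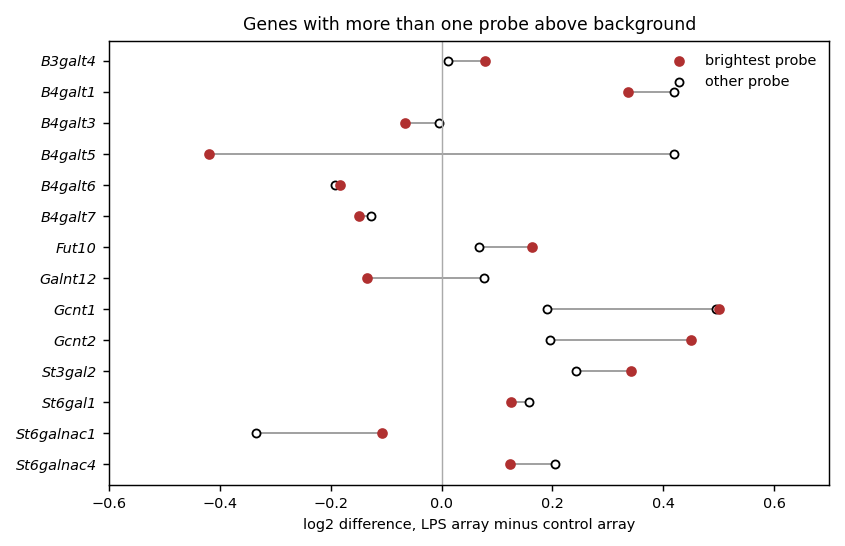
The log2 difference (LPS array minus control array, x axis) of each probe for the 14 genes (y axis) with more than 1 probe well above background on both arrays. Filled points are the brightest probe and open points the others. The probes share a sign for 12 genes, and B4galt5 (-0.42 and 0.42) and Galnt12 (-0.13 and 0.077) are the exceptions.

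Several fucosyltransferase genes lay near the floor of detection. Of 8 Fut genes, 4 were measured, 1 passed after LPS only, 1 in control cells only and 2 on neither array. Fut2, the secretor enzyme that puts the H antigen on gut mucins and that gut bacteria are known to induce in the small intestine, was above background on neither array, at 3.45 and 3.64. Fut1, its neighbour and the other H enzyme, was measured but dim, at 27.6 and 19.3, or -0.47 ± 0.13, the lowest of the family. With normexp Fut1 was at -0.12. The Fut1 and Fut2 probes lie 28.4 kb apart on chromosome 7.

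Fut8, which adds core fucose to N-glycans, was at 1713 in control cells and 1299 after LPS, or -0.35 ± 0.041. It lay between -0.37 and -0.32 over the alternatives. The changes of filter cannot alter this value, nor can the median over probes, since Fut8 has 1 probe. Fut10 was highest at 1502 and 1631, or 0.16 ± 0.041, and Fut11 was at 205 and 219, or 0.14 ± 0.13.

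The enzymes of Lewis X and sialyl Lewis X were dim or at background. Fut7, which makes the selectin ligand sialyl Lewis X in leukocytes, read 8.64 in control cells and 18.03 after LPS, and passed the background flag with LPS only. Its bound was at least 1.17-fold higher with LPS, and its further probe was above background on neither array. Fut9 passed in control cells only, at 17.7 and 17.6, and so close that it has no bound above 1. Of all genes that did so, 19.2% of 946 had a bound of at least 2-fold. Fut4 was above background on neither array, at 7.53 and 7.43.

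Of the sialyltransferases, 5 of 6 St3gal, 1 of 2 St6gal, 4 of 6 St6galnac and 1 of 6 St8sia genes were measured. St3gal2, which caps core 1 and gangliosides, was highest in its family at 5223 and 6418, or 0.34 ± 0.028, and its further probe gave 0.24. St3gal1, the other core 1 enzyme, was dim at 37.3 and 41.4, or 0.20 ± 0.13, and 0.060 with normexp. The St3gal enzymes that sialylate N-acetyllactosamine were lower. St3gal6 was lowest at 1049 and 825, or -0.30 ± 0.055, St3gal4 was at 2161 and 1857, or -0.17 ± 0.041, and St3gal3 at 2461 and 2190, or -0.12 ± 0.041. Each of these signs was kept under all alternatives run. St3gal5, the GM3 synthase from which most gangliosides derive, was above background on neither array.

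St6gal1, which adds α2,6-sialic acid to N-glycans, was at 1042 and 1103, or 0.13 ± 0.055, and a further probe gave 0.16. St6gal2 was above background on neither array. In the St6galnac family, St6galnac2, which sialylates the GalNAc of O-glycans, is the member with the best error, since its probe was printed 10 times. Its mean intensity was 984 in control cells and 707 after LPS, a log2 difference of -0.43 with an SD of 0.043 between its own 10 spots. This was the lowest of its family. St6galnac1, the sialyl-Tn synthase, was at 1120 and 1008, or -0.11 ± 0.055, and a further dim probe gave -0.34. St6galnac6 was highest at 2164 and 2400, or 0.19 ± 0.041, and St6galnac4 was at 912 and 963, or 0.12 ± 0.055. Both act on glycans that already carry sialic acid. St6galnac3 and St6galnac5 were above background on neither array.

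The polysialyl and disialyl enzymes were almost all at background. St8sia1, the GD3 synthase, was the 1 measured St8sia gene, at 51.1 in control cells and 34.3 after LPS. It was 1.45-fold lower with LPS, at -0.53 ± 0.13, the lowest of the measured list, and -0.17 with normexp. St8sia2 and St8sia4, which make polysialic acid on neural adhesion molecules, and St8sia3, St8sia5 and St8sia6 were above background on neither array. Over the 25 genes on neither array, intensities ran from 3.19 to 16.2 on the control array and from 3.39 to 9.82 on the LPS array. The lowest intensity flagged well above background was 15.9 in control cells and 16.9 after LPS.

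By probe position on mm9, 5 pairs of members lay within 500 kb of each other, and whether other genes lie between them was not analysed here. St6galnac4 and St6galnac6, 20.3 kb apart on chromosome 2, were both measured. St6galnac1 and St6galnac2, 88.5 kb apart on chromosome 11, were both measured, as were B4galt2 and St3gal3, 58.9 kb apart on chromosome 4. St6galnac3 and St6galnac5, 385.4 kb apart on chromosome 3, were both at background. Of Fut1 and Fut2, only Fut1 was measured. These 5 pairs are a description, with no test.

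**Figure D5:**
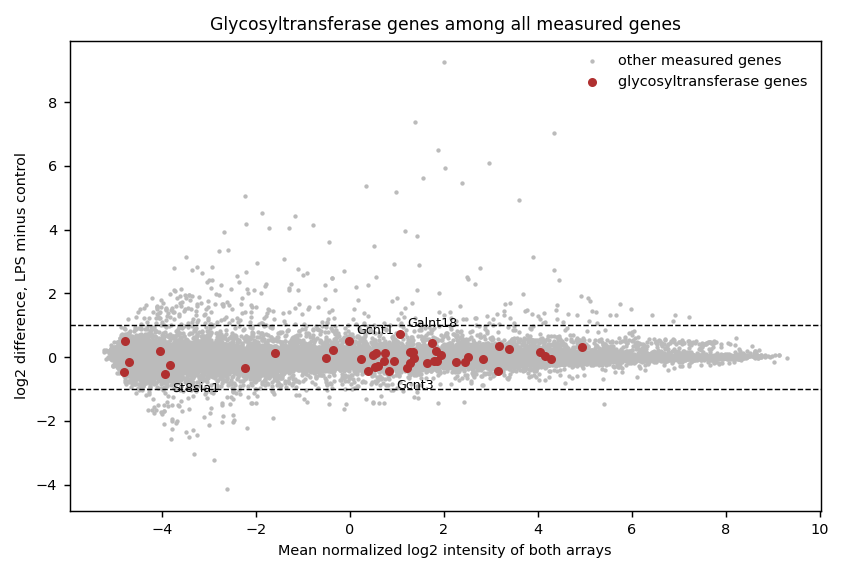
The log2 difference (LPS minus control, y axis) against the mean normalized log2 intensity of both arrays (x axis) for the 44 measured glycosyltransferase genes (red points) and all other measured genes (grey). Dashed lines mark 2-fold. No red point crosses a dashed line, and red points lie among both dim and bright genes.

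The other genes of the pathway were taken from lists of the sugar donors, their transporters, sulfation, further transferases and the mucins that carry the glycans. Of 27 nucleotide sugar genes 24 were measured, and none of these differed 1.5-fold, with a median of -0.044. Galk1, the galactokinase, was highest at 12927 and 17169, or 0.45 ± 0.028, and Pmm1, a phosphomannomutase, was lowest at 4529 and 3405, or -0.37 ± 0.041. Chosen after its value was seen, Gmds, the first enzyme of GDP-fucose synthesis, was at 0.41 ± 0.028. All 10 sugar transporters were measured and none differed 1.5-fold, with a median of -0.0053, Slc35d1 highest at 0.14 ± 0.13 and Slc35d2 lowest at -0.17 ± 0.13. Npl, the sialic acid lyase, also chosen after its value was seen, passed the background flag with LPS only, at 13.9 and 44.7, and was at least 2.89-fold higher. The measured supply genes thus held no 2-fold difference. Over all measured genes 1.46% were 2-fold higher and 0.571% were lower, so a count of 0 is near that share.

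Of 14 sulfotransferase and sulfate donor genes, 7 were measured, with 1 above 0, 6 below and a median of -0.14. Gal3st1, the sulfatide synthase, was highest at 0.015 ± 0.041. Chst4, which sulfates GlcNAc on mucin-type glycans, was lowest at 89.5 and 62.7, or -0.47 ± 0.13. Of 15 further transferases 10 were measured and none differed 1.5-fold. The Gb3 synthase A4galt was highest at 27.1 and 37.4, or 0.51 ± 0.13, and the Notch-modifying Lfng lowest at 545 and 454, or -0.22 ± 0.055. B4galnt2, chosen after its value was seen and the enzyme of the Sda antigen of colon, passed in control cells only, at 28.3 and 21.4, and was at least 1.29-fold lower with LPS. Of the Galnt relatives under other names, Galntl5, Galntl6 and Wbscr17 (now Galnt17) were above background on neither array.

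The mucins that carry these glycans were read by 10 genes. Of these, 6 were measured, with 5 above 0 and a median of 0.27. The transmembrane mucin Muc1 was at 452 in control cells and 1000 after LPS, 2.28-fold higher at 1.19 ± 0.055. It was the 1 mucin past 2-fold. Muc4, chosen after its value was seen, was at 419 and 694, or 0.77 ± 0.055, and Muc20 was lowest at -0.045 ± 0.13. Muc2, Muc3, Muc6 and Muc15 were above background on neither array.

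Of the epithelial markers, 10 of 11 measured ones were below 0, with a median of -0.25. Lgals4 was 2.74-fold lower, and the summed intensity of the 12 was 806584 in control cells and 674946 after LPS, most of it from the keratins Krt8, Krt18 and Krt19. Of 8 goblet cell markers 2 were measured and both were lower, Spdef at -1.96 ± 0.13 and Clca3 at -0.74 ± 0.13. Agr2, at 45.1 and 21.2, was at least 2.07-fold lower. The summed intensity of the 8 goblet cell markers was 350.1 and 130.3, of which Spdef alone gave 231.8 and 57.6. The part of these shifts in the lower values of Gcnt3, St6galnac2, Fut8 and other members was not tested. In bulk RNA fewer cells of a type and less RNA per cell cannot be told apart. Of 9 macrophage, 8 lymphocyte, 7 fibroblast and 6 endothelial markers, 4, 3, 2 and 2 were measured. Of these, 1 differed 1.5-fold, the fibroblast collagen gene Col1a2, which was 1.88-fold higher after LPS at 60.7 and 110.4. From the macrophage list, Lyz2, Tyrobp and Laptm5 were at background on both arrays, at 3.39 to 7.64 and 3.57 to 3.72. Ptprc, the pan-leukocyte gene, passed in control cells only, at 52.9 and 14.7, and was at least 3.03-fold lower with LPS. Pdgfra, of fibroblasts, also passed in control cells only, at 34.6 and 4.41, at least 1.96-fold lower. The 4 measured macrophage genes were Csf1r at 1575 and 1587, Itgam at 7516 and 7780, Cd68 at 1064 and 1273, and Fcer1g at 75.6 and 64.8. The 3 measured lymphocyte genes were Cd3e at 1149 and 1117, Nkg7 at 756 and 687, and Cd79a at 105 and 112. Cd79b, of B cells, passed after LPS only, at 13.0 and 84.1, at least 5.45-fold higher, as did the macrophage gene Emr1 at 11.6 and 30.3, at least 1.96-fold higher. The summed intensity of the macrophage markers, mostly that of Itgam, was 10310 in control cells and 10761 after LPS. That of the lymphocyte markers was 2040 and 2023, and that of the fibroblast markers 223 and 265. The endothelial markers summed to 5458 on both arrays, nearly all of it from Kdr at 5359 and 5362.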

How the data were processed

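The deposited values are spot intensities of 2 arrays, which Agilent Feature Extraction 10.10.1.1 had corrected for background and spatial trend, per the file headers. Both arrays share 1 slide and 1 scan. Probe positions are those of mm9, per the file headers. There were 59305 non-control spots, of which 55.8% (control) and 54.7% (LPS) passed the background flag and 0 were saturated. The number of arrays limits the precision.

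Spots flagged as outliers on either array (223) were left out. The log2 intensity minus the 75th percentile of each array was averaged over spots of a probe, and a gene took its brightest probe, under its array name. Well above background was the flag gIsWellAboveBG. Accessions of 94 of 102 member probes matched RefSeq (GRCm38.p6), and 1 had another current symbol. Whether a probe lies in an exon was not analysed here. For a bound, the dim side was taken as its own signal or that array's lowest signal well above background, whichever was higher. The labels carry the same treatment text, with dose and time, on both samples. Dose and time were read as those of the LPS sample, since the titles name a control and an LPS-stimulated sample.

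Values are given for C1galt1 and C1galt1c1, for members 1.5-fold different or with such a bound, for the highest and lowest of each family, and for others as chosen after their values were seen. The members and lists were chosen with earlier results of these data known. The alternatives were normexp with an offset of 50, floored subtracted signal, quantile, cyclic loess (span 0.7), median centring, the percentile of detected probes, the median over probes and 3 other filters. R 4.3.3, limma 3.58.1, Python 3.11.15, numpy 2.4.6, pandas 2.3.3 and matplotlib 3.10.9 were used, and the size rule was tested on simulated data.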

Additional observations from a re-analysis of the deposited data

How the results depend on the processing

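The sign of 40 of 44 measured genes was kept under all alternatives run, and the 4 that changed (B3galt6, B3gnt2, Galnt2 and Galnt7) were within 0.027 of 0. The 40 include B4galt5, at -0.0005 with the median over probes, and Galnt12, though the measured probes of each differ in sign. Changes of filter cannot alter a measured gene's own value, nor can the median over probes where 1 probe was measured. With the looser background flag 2 members were at least 2-fold higher (B3gnt4 and Fut7), with no background filter 3 (also Galnt16), and at a 1.5-fold threshold 1. None was 2-fold lower under any alternative run. The members' median was 0.11 with no background filter, where probes at background enter, and lay between -0.054 and -0.0026 under the others. With the looser flag 1 member passed after LPS only and 2 in control cells only. The bound of B3gnt4 was 0.82 with normexp on the log2 scale, and the cause was not tested. Over all measured genes 1.46% were 2-fold higher and 0.571% were lower. Among the 100 genes of the related lists, cell type markers not counted, 1 measured gene, Muc1, was 2-fold higher and 0 were lower. These counts were 2 and 1 with the looser flag, 2 and 1 with no filter, and 0 and 0 among brighter genes, since the filter sets which genes are counted. Dim members (Galnt14, Fut1, St8sia1) moved most with normexp. An offset draws dim signals together, but its part in these shifts was not tested. No paired analysis was possible because each group has 1 array.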

Other observations

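The genes that branch N-glycans and those that take glycans apart were taken from 2 further lists. Of 8 Mgat genes, which branch N-glycans, 6 were measured, none differed 1.5-fold, and the median was 0.026. Mgat5b was highest at 427 in control cells and 448 after LPS, or 0.12 ± 0.055 (SD between spots), and Mgat4a was lowest at 170 and 146, or -0.18 ± 0.13. Mgat5, which makes the branch that lengthened chains prefer, was singled out after its value was seen. It passed the background flag in control cells only, at 55.4 and 18.4, and was at least 2.92-fold lower with LPS.

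Of 13 genes for sialidases, other exoglycosidases and sialic acid O-acetylation, 12 were measured, with 7 above 0, 5 below and a median of 0.028. Casd1, which O-acetylates sialic acid, was highest at 483 and 563, or 0.27 ± 0.055. Neu2, a cytosolic sialidase, was lowest at 168 and 108, 1.52-fold lower at -0.60 ± 0.13. The lysosomal sialidase Neu1, chosen after its value was seen, was at 23886 and 26484, or 0.19 ± 0.028.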
